A study of Mus musculus with 8 samples.

Results

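Gene expression in sorted CD4+ CD25+ T cells was compared between visceral adipose tissue and spleen of wild-type (WT) mice, across every gene in the deposited table. The comparison used 4 of the 8 libraries of the series, 2 of adipose tissue and 2 of spleen, each numbered 2 or 3. The file headers call these numbers experiments. The other 4 libraries came from adipose tissue and spleen of mice labelled Id2 CKO, called KO here. They entered only the estimate of the spread between libraries and the filter that set which genes were tested. All mice were C57BL/6, no age or treatment is given, and at least 500 cells were sorted per sample. CD4 with CD25, the high-affinity chain of the interleukin-2 receptor, enriches for regulatory T cells (Tregs), but the gate can also hold recently activated conventional T cells, since Foxp3 was not part of the sort. The labels do not name the promoter that drives deletion in the Id2 CKO mice, nor say whether both libraries of a group are from different animals. P-values therefore measure only library-to-library spread, which may be technical. Of 45232 genes in the table, 13376 reached at least 1 TPM (a share of all transcripts, corrected for transcript length) in at least 2 of the 8 libraries and were tested.

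Tregs are CD4 T cells that restrain other immune cells and depend on the transcription factor Foxp3. Those of visceral fat are known as a tissue-resident population that depends on the nuclear receptor PPARγ (Pparg) and on IL-33 sensed through ST2 (Il1rl1), and that carries Gata3, Klrg1 and Ccr2. Spleen holds a mixture of resting, recirculating and activated Tregs.

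The cells of both tissues carried the transcripts of the gate. Cd4 stood at 206 and 105 TPM in adipose experiments 2 and 3, and at 75.6 and 119 TPM in spleen. Cd3e, a chain of the T cell receptor complex, stood at 172 and 847 TPM in adipose tissue and at 266 and 688 TPM in spleen. Il2ra, which encodes CD25, had 68.7 and 175 TPM against 120 and 172 TPM, and the groups overlapped. Foxp3 was at 126 and 93.5 TPM in adipose tissue and at 169 and 266 TPM in spleen, without overlap. The Foxp3 difference did not pass the test (limma, adjusted p = 0.801, and 0.156 in a fit of the 4 WT libraries alone). The wider fit takes in 2 KO libraries of experiment 2 in which Foxp3 was at 7.40 and 8.27 TPM. Id2, the gene targeted in the KO mice, had 1499 and 1298 TPM in KO adipose cells and 72.1 and 265 TPM in KO spleen cells, under the WT values of the same tissue given below but not absent.

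The table keeps no read depth. Between 14717 and 16822 genes were above 0 in the 4 WT libraries. Across tested genes, which are not independent replicates, the pair of WT libraries correlated at r = 0.902 in adipose tissue and 0.956 in spleen. The WT adipose libraries stood further apart from each other than the spleen libraries: 853 tested genes (6.38%) differed by 4-fold or more between them, against 179 (1.34%) in WT spleen. In the KO libraries, whose spread entered the main fit, 1835 tested genes (13.7%) differed so in adipose tissue and 423 (3.16%) in spleen. Results are therefore given with the value of each library. The median tested gene had a log2 fold change (adipose minus spleen) of 0.32, which quantile normalization moved to -0.0033, so gene lists are read against that median.

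With limma across all 8 libraries, 22 of 13376 genes (0.164%) passed an adjusted p of 0.05. They were 18 genes that rose in adipose cells (0.135%) and 4 that fell (0.0299%). At an unadjusted p under 0.05 there were 1741 genes. Genes of immediate response to receptor signals and their feedback inhibitors made up much of the list: Fos, Fosb, Ier2, Klf6, Btg2, Rgs2, Dusp1, Dusp6 and Tnfaip3. The other genes that rose included the chemokine receptor Cxcr6, the ubiquitin ligase Rnf128, the CD40 ligand Cd40lg and annexin A1 (Anxa1). The interleukin gene Il18 and the epoxide hydrolase Ephx1 fell. All 22 genes were at least 4-fold apart in the same direction in both experiments, with no overlap between the tissues. This restates the WT values that gave the calls and is no further evidence. Of all tested genes, 37.8% lay higher and 15.1% lower in adipose tissue without overlap. By the 4-fold rule 1.55% were higher and 0.912% lower in both experiments. With the experiment number as a block, 78 genes passed, 67 higher (0.501%) and 11 lower (0.0822%), among them all 22. In the 4 WT libraries alone, with the filter applied to those libraries, 217 passed, 152 higher (1.26% of 12046) and 65 lower (0.54%), again with all 22. With the filter taken over all 8 libraries, the same 4 libraries gave 0 calls by limma, with 2543 genes at an unadjusted p under 0.05. The number of calls rested on single libraries: 0 genes passed without WT spleen experiment 2 (642 at an unadjusted p under 0.05), 2 without WT spleen experiment 3, 4 without WT adipose experiment 3 and 38 without WT adipose experiment 2. Without KO adipose experiment 2 the count was 162, and without KO adipose experiment 3 it was 175.

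**Figure D1:**
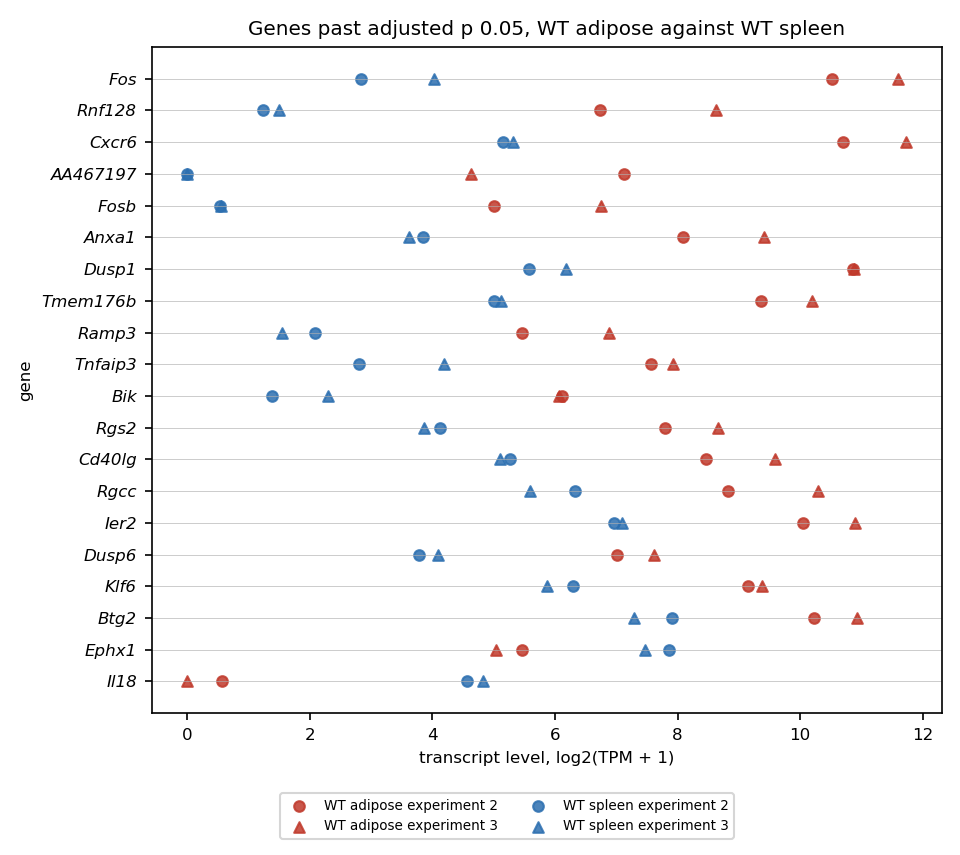
Transcript level of the 20 named genes past the adjusted p of 0.05 in each WT library, on a log2(TPM + 1) axis, with red for adipose tissue, blue for spleen, circles for experiment 2 and triangles for experiment 3. In every row both adipose points lie on one side of both spleen points. The Dusp1 and Bik values of the adipose libraries nearly coincide, and those of AA467197 are furthest apart.

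The AP-1 family encodes the Fos, Jun and Atf proteins that pair into a transcription factor switched on within minutes of receptor, growth factor or stress signals. In adipose experiments 2 and 3 the Fos level was 1475 and 3107 TPM, and in spleen it was 6.11 and 15.2 TPM. Both adipose values lay far above both spleen values, and the log2 fold change was 7.64 (SE 0.57, adjusted p = 0.00482, limma), the largest among the 22 genes. Fosb, a close relative of Fos, was at 31.1 and 107 TPM against 0.448 and 0.463 TPM (log2 fold change 5.34, SE 0.67, adjusted p = 0.0346). Junb, which pairs with Fos, had 3418 and 7229 TPM in adipose tissue and 97.3 and 320 TPM in spleen (log2 fold change 4.81). It just missed the threshold (adjusted p = 0.0506) and passed with the block (0.00935). Jun had 90.6 and 610 TPM against 3.77 and 20.2 TPM, with an adjusted p of 0.224, and 0.049 with the block. Atf3, a stress-responsive member, was at 8.75 and 125 TPM in adipose tissue and listed at 0 in both spleen libraries. Fosl2 was at 5.87 and 19.6 TPM against 0.151 and 0.954 TPM. Batf, the AP-1 partner that Tregs use in tissue programs, went the other way, at 210 and 145 TPM in adipose tissue and 576 and 475 TPM in spleen (adjusted p = 0.251). Of 13 family members tested, 2 passed (4 with the block) and 6 were at least 4-fold higher in both experiments. By that same rule 1.55% of all tested genes were higher and 0.912% lower. The median log2 fold change of the family was 1.83.

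The families of Egr, Nr4a, Ier and Klf genes are transcribed shortly after the T cell receptor is engaged. Of 23 such receptor-response genes tested, 4 rose and none fell. In both experiments 10 were at least 4-fold higher, against 1.55% of all tested genes, and the median was 1.96. With the block 6 passed, and in the WT libraries alone 10 did. Ier2, an immediate early gene, was at 1056 and 1897 TPM in adipose tissue and at 124 and 136 TPM in spleen (adjusted p = 0.0169, log2 fold change 3.44 with SE 0.35). Rgs2, which dampens G protein signals, was at 222 and 405 TPM against 16.5 and 13.5 TPM (adjusted p = 0.0216). Klf6, a zinc finger factor, was at 570 and 665 TPM against 77.7 and 57.6 TPM (adjusted p = 0.0389). Btg2, an antiproliferative factor, was at 1199 and 1942 TPM against 240 and 155 TPM (adjusted p = 0.0392). The tissues did not overlap in any of these 4 genes, and their folds were smaller than that of Fos. Egr1 was at 127 and 423 TPM in adipose tissue and at 22.0 and 17.98 TPM in spleen, with an adjusted p of 0.111. Nr4a1, which encodes Nur77, was at 80.9 and 243 TPM against 9.33 and 35.5 TPM (adjusted p = 0.342). Cd69, a surface marker of activation and of tissue retention, was at 894 and 1238 TPM against 334 and 219 TPM. Rel, an NF-κB subunit, was lower in both adipose libraries, at 6.36 and 3.90 TPM against 21.1 and 26.9 TPM. Neither Cd69 nor Rel passed the test. The families did not move as a whole. Of the 23 genes, 20 had a positive log2 fold change, against 65.5% of all tested genes. In 16 both adipose values exceeded both spleen values, against 37.8% of all tested genes. Irf4, like Rel, lay lower in adipose tissue without overlap (log2 fold change -1.12). The tissues overlapped for Egr2 (log2 fold change 0.25), Nr4a3 (-0.93), Ier5, Myc and Rgs1.

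Several inhibitors that shut these signals down stood high as well. Dusp1, a phosphatase that inactivates p38 and JNK kinases, was at 1864 and 1882 TPM in adipose tissue and at 46.6 and 71.3 TPM in spleen (adjusted p = 0.00482, log2 fold change 4.997 with SE 0.35). Its 2 adipose values were nearly equal. Dusp6, a phosphatase of ERK, was at 128 and 195 TPM against 12.7 and 15.96 TPM (adjusted p = 0.0206). Tnfaip3, which encodes the NF-κB inhibitor A20, was at 188 and 242 TPM against 5.97 and 17.2 TPM (log2 fold change 4.25, SE 0.50, adjusted p = 0.0216). Of 24 feedback regulators tested, these 3 rose (6 with the block) and none fell. In both experiments 7 were at least 4-fold higher, against 1.55% of all tested genes. The other 4 of these 7 were Dusp5, Nfkbid, Nfkbiz and Zfp36. In 14 of the 24 both adipose values lay above both spleen values, against 37.8% of all tested genes. The list median was 0.71, and 0.31 after quantile normalization. The tissues overlapped for other members, among them Nfkbia (900 and 1549 TPM against 958 and 923.5 TPM) and Dusp2 (133.5 and 2.64 TPM against 69.7 and 89.4 TPM). Zfp36, which destabilizes cytokine mRNAs, was at 336 and 1067 TPM against 77.9 and 107 TPM (limma, adjusted p = 0.202, and 0.0442 with the block). Nfkbid had an adjusted p of 0.121 by limma and Nfkbiz of 0.182, both 0.0352 with the block. Ppp1r15a, a stress-response subunit of protein phosphatase 1, had 570 and 1311 TPM against 15.8 and 31.9 TPM, with an adjusted p of 0.0506, and 0.00935 with the block. Of 17 heat shock and chaperone genes tested, 0 were called by limma in the main fit or with the block, and none was 4-fold apart in both experiments. Their median was 0.47. Immediate-response transcripts can also be induced while a tissue is taken apart. How adipose tissue and spleen were processed before sorting is not given in the labels, so tissue and handling cannot be told apart here.

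The starts of the 4 genes of these families with the largest called folds are shown because their transcripts stood high together. Each sequence is the RefSeq promoter window of GRCm38.p6, 250 bases before the start of transcription and 50 after it, read 5′ to 3′ on the gene's strand. Capitals mark the cAMP response element core TGACG, the full element TGACGTCA and the AP-1 site TGANTCA, on either strand. The core lies within the full element. The windows are chr12:85473640-85473939 (plus strand) for Fos, chr7:19309996-19310295 (minus) for Fosb, chr17:26508423-26508722 (minus) for Dusp1 and chr10:19015361-19015660 (minus) for Tnfaip3.
Fos: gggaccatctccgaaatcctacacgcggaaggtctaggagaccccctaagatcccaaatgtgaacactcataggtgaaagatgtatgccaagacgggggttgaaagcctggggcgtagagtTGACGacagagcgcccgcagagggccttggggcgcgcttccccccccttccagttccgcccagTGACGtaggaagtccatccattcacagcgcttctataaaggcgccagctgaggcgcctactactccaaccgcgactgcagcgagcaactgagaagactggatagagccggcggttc
Fosb: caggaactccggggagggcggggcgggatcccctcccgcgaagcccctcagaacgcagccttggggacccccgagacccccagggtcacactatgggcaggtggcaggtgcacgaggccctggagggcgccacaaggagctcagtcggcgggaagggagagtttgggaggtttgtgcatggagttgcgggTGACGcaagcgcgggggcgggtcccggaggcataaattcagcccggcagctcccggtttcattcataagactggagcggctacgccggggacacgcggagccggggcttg
Dusp1: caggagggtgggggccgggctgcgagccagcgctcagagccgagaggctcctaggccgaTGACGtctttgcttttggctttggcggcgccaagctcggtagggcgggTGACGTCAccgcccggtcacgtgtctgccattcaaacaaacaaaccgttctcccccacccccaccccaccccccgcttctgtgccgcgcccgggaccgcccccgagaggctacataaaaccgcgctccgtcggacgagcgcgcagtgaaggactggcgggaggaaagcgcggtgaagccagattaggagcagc
Tnfaip3: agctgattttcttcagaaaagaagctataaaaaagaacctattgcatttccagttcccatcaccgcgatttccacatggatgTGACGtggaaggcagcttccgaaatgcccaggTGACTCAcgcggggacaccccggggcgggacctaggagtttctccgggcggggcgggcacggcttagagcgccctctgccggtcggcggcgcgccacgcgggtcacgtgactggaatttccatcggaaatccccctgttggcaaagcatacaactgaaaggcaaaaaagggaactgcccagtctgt
The Fos window held the core at 129 and 66 bases before the start, and the Fosb window held it at 60 bases before. The Dusp1 window held the full element at 143 bases before the start and a further core at 191, and the Tnfaip3 window held the core at 168 and an AP-1 site at 136. Among 27025 promoter windows of the same length, 21% held the core, 1.88% the full element and 7.93% the AP-1 site. A CArG box, the site of serum response factor, was searched by its consensus on both strands. It was not in these 4 windows and was in 1.57% of all windows. Bases further than 250 before the start were not searched, so a site there would not be seen. These are matches of letters, and no binding was measured.

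Receptors for chemoattractants and residence set the adipose cells apart in a few large steps. Cxcr6, the receptor for Cxcl16 found on tissue-resident T cells, was at 1658 and 3398 TPM in adipose tissue and at 34.5 and 38.8 TPM in spleen (adjusted p = 0.00966, log2 fold change 5.98 with SE 0.52). Ccr2, the receptor for Ccl2, was at 294 and 783 TPM against 7.40 and 12.6 TPM (log2 fold change 5.49, adjusted p = 0.0736, and 0.0369 with the block). Ltb4r1, the receptor for the lipid attractant leukotriene B4, was at 203 and 1296 TPM against 8.09 and 3.90 TPM (adjusted p = 0.0814). Xcr1 was low everywhere, at 3.99 and 9.81 TPM against 0.0298 and 0.678 TPM. Of 20 chemokine receptor genes tested, Cxcr6 passed (Ccr2 too with the block), none fell, and 3 were at least 4-fold higher in both experiments. In 11 of the 20 both adipose values lay above both spleen values, as they did for 37.8% of all tested genes. The naive and lymph node homing genes showed no common direction. Ccr7 was at 589 and 103 TPM against 350 and 228 TPM, S1pr1 at 355 and 87.4 TPM against 111 and 108 TPM, and Klf2 at 134 and 33.0 TPM against 93.2 and 75.2 TPM. In these 3 genes adipose experiment 2 was above both spleen libraries and adipose experiment 3 was below them. Tcf7 stood at 222 and 173 TPM against 111 and 133 TPM, and Lef1 at 47.3 and 24.4 TPM against 33.9 and 26.6 TPM. Igfbp4, a further gene of naive T cells, was at 105 and 47.8 TPM against 7.74 and 9.83 TPM (adjusted p = 0.111). Of 18 genes of this list, 0 were called by limma in the main fit or with the block, and 2 were called higher in the WT libraries alone.

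**Figure D2:**
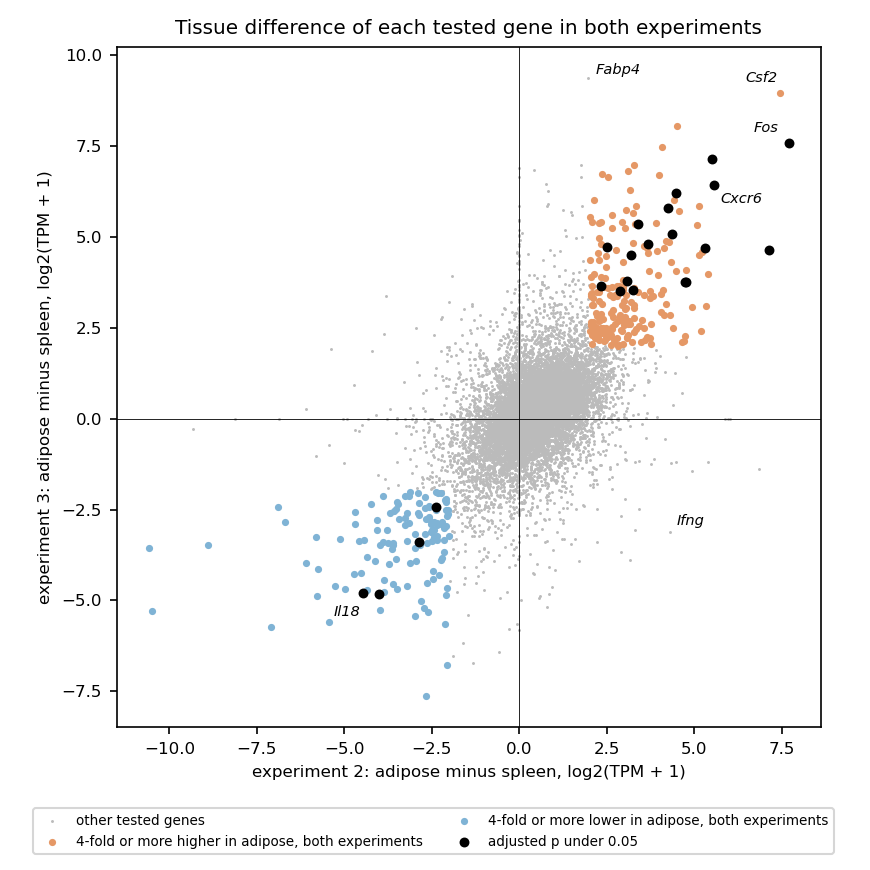
Difference between adipose tissue and spleen in log2(TPM + 1), with experiment 2 on the horizontal axis and experiment 3 on the vertical axis, for each of 13376 tested genes. Black points are the 22 genes past the adjusted p of 0.05, orange and light blue the genes at least 4-fold higher (207) or lower (122) in both experiments. Ifng and Fabp4 are named as examples of genes that differed between the experiments and were chosen after their values were seen.

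Several cytokine transcripts that were low in spleen were present in both adipose libraries. Csf2, which encodes the myeloid growth factor GM-CSF, was at 202 and 1015 TPM in adipose tissue and at 0.166 and 1.04 TPM in spleen. Its log2 fold change was 8.20 (SE 1.26), with an adjusted p of 0.0586, and 0.0442 with the block. Il2, the T cell growth factor that Foxp3 represses, was at 30.2 and 92.5 TPM against 0.464 and 0.462 TPM (adjusted p = 0.0506, and 0.049 with the block). Il5, a type 2 cytokine that sustains eosinophils, was at 15.8 and 176 TPM in adipose tissue and listed at 0 in both spleen libraries (adjusted p = 0.0752, and 0.049 with the block). Il4 stood at 17.8 and 52.4 TPM against 0.324 and 4.18 TPM, and Il6 at 8.46 and 60.7 TPM against 0 and 0.218 TPM. In all 5 genes adipose experiment 3 held the higher value. Il10, a suppressive cytokine, had 28.2 and 2.02 TPM against 5.40 and 8.64 TPM, and the tissues overlapped. Il18, a member of the IL-1 family that drives interferon responses, went the other way. It was at 0.474 and 0 TPM in adipose tissue and at 22.6 and 27.2 TPM in spleen (adjusted p = 0.0203, log2 fold change -4.41 with SE 0.49). In the KO libraries Il18 did not follow this order, at 33.3 and 63.9 TPM in adipose tissue and 16.6 and 20.5 TPM in spleen. The limma interaction, which asks whether the tissue difference differed between genotypes, gave an adjusted p of 0.0642. Of 26 chemokine and cytokine genes tested, Il18 was the 1 that fell and none rose (3 rose with the block), while 7 were at least 4-fold higher in both experiments. The decoy receptor Il1r2, which binds IL-1 without signaling, was at 22.8 and 0.0815 TPM against 149 and 213 TPM (adjusted p = 0.192).

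Of 25 genes known as hallmarks of adipose Tregs, 15 were higher in adipose tissue in both experiments (47.2% of all tested genes were) and 5 lower in both (21% of all). By limma 0 were called (Ccr2 with the block). Pparg was at 25.6 and 154 TPM in adipose tissue and at 4.26 and 2.70 TPM in spleen (adjusted p = 0.202, log2 fold change 3.87 with SE 0.99). Il1rl1 was at 23.4 and 295 TPM against 6.00 and 8.37 TPM (adjusted p = 0.293). Gata3, a type 2 transcription factor, was at 156 and 426 TPM against 49.7 and 76.8 TPM (adjusted p = 0.202). Areg, the repair factor amphiregulin, was at 54.1 and 251 TPM against 1.03 and 13.9 TPM (adjusted p = 0.148). In each of these 4 genes both adipose libraries lay above both spleen libraries, and adipose experiment 3 was the highest. Klrg1, an inhibitory receptor, was at 300.5 and 1415 TPM against 313 and 284 TPM, so that adipose experiment 2 lay within the spleen range. The peptide-processing enzyme gene Pcsk1 had 7.54 and 166 TPM against 0 and 0.489 TPM, and the arginase gene Arg1 at 16.4 and 247 TPM against 0.0899 and 1.38 TPM. Rora, a nuclear receptor shared with innate type 2 cells, was at 41.9 and 127 TPM against 5.20 and 11.5 TPM. Of the 25 genes, 6 were at least 4-fold higher in both experiments, and the list median was 1.71. The list shares Il1rl1, Gata3, Rora and Klrg1 with the markers of type 2 innate lymphoid cells (ILC2), whose summed level was 569.9 and 2583 TPM in adipose tissue and 376.7 and 384.5 TPM in spleen. Of 9 ILC2 markers tested, 0 were called by limma (1 with the block, 3 in the WT libraries alone) and 4 were at least 4-fold higher in both experiments. They included Nmur1, a neuropeptide receptor, at 21.0 and 76.5 TPM against 1.47 and 0 TPM, and Calca at 9.14 and 56.4 TPM against 0 in both spleen libraries. The part of ILC2 in these values was not tested.

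The 2 Id proteins of lymphocytes, inhibitors that hold E-protein transcription factors off DNA, stood in opposite order. Id2 was at 2249 and 3679 TPM in adipose tissue and at 274 and 346 TPM in spleen, a log2 fold change of 3.22 (SE 0.57). Id3 was at 25.1 and 22.3 TPM in adipose tissue and at 322 and 276 TPM in spleen, a log2 fold change of -3.60 (SE 0.52). In the main fit Id2 had an adjusted p of 0.0835 and Id3 of 0.0506, both 0.0519 with the block, and in the 4 WT libraries alone 0.0153 and 0.00609. Id2 exceeded Id3 in both adipose libraries, while in spleen the 2 genes were at similar levels. Among 24 transcription factors of effector Tregs, 0 were called by limma (1 with the block), 5 were at least 4-fold higher in both experiments and 1, Id3, at least 4-fold lower. Bhlhe40, a repressor induced by T cell activation, was at 321 and 294 TPM against 9.62 and 34.1 TPM (adjusted p = 0.0506, and 0.0399 with the block). Nr1d1, the clock repressor REV-ERBα, was at 22.5 and 144 TPM against 0.287 and 3.95 TPM. The remaining 3 of the 5 were Id2, Pparg and Rora.

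**Figure D3:**
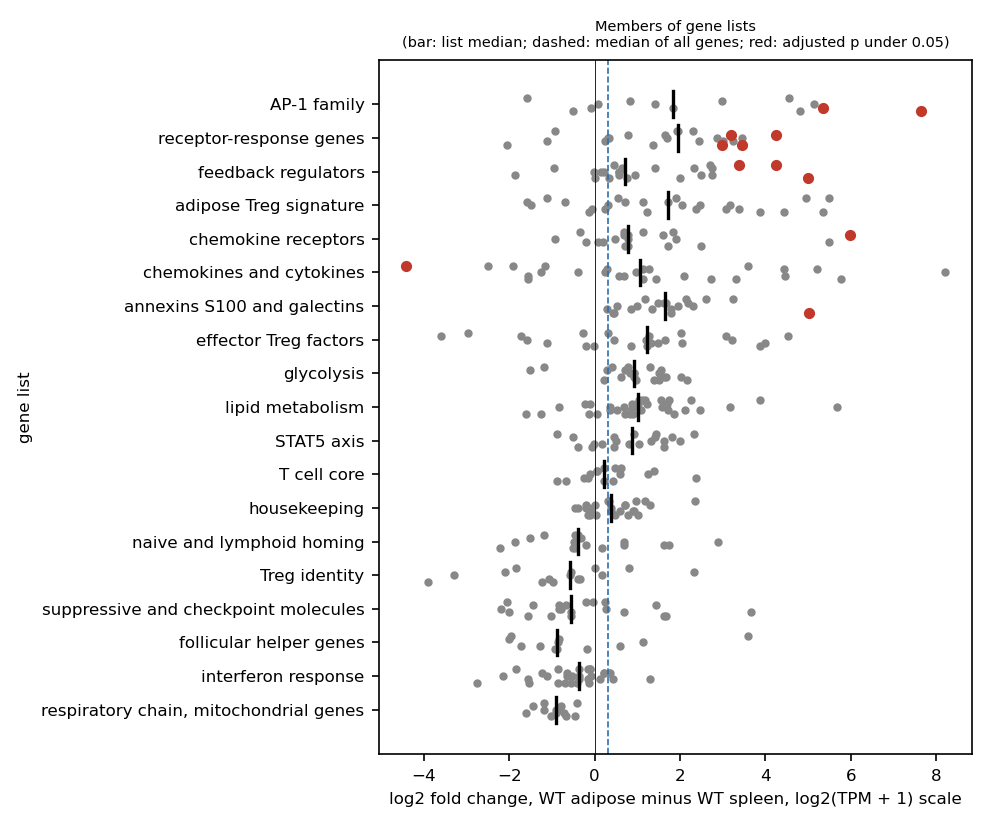
Log2 fold change (WT adipose minus WT spleen) of the tested members of 19 gene lists, with a bar at each list's median and a dashed line at the median of all tested genes (0.32). Red points passed the adjusted p of 0.05. Members of the AP-1, receptor-response and annexin lists lie mostly right of the dashed line, and all mitochondrially encoded genes lie left of 0.

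Among the Treg identity genes, 0 of 15 tested were called by limma in the main fit or with the block, and the median log2 fold change was -0.57. Izumo1r, the folate-receptor-like protein of Tregs and anergic T cells, was at 148 and 38.8 TPM in adipose tissue and at 737 and 778 TPM in spleen (log2 fold change -3.30, adjusted p = 0.111). Gpr83 was at 17.0 and 0 TPM against 77.9 and 49.3 TPM. Ikzf2, which encodes Helios, was at 37.8 and 34.8 TPM against 109 and 161 TPM (adjusted p = 0.146). Both Izumo1r and Gpr83 were at least 4-fold lower in both experiments. In 8 of the 15 genes both adipose values lay under both spleen values, as in 15.1% of all tested genes. Socs2, a suppressor of cytokine signals, lay the other way, at 83.0 and 122 TPM against 22.5 and 16.3 TPM. In bulk samples fewer cells of a type and less RNA per cell cannot be told apart, which applies to each of these lists. The suppressive and checkpoint list was mixed, with a median of -0.56 and 0 of 21 genes called by limma in the main fit or with the block. Fgl2, a secreted suppressor, was at 206 and 98.3 TPM against 10.3 and 10.2 TPM (log2 fold change 3.67, adjusted p = 0.0833). Cd200 was at 13.7 and 18.3 TPM against 66.8 and 65.7 TPM.

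Members of the TNF receptor family and its ligands lay on both sides, with a median of -0.03. Cd40lg, the ligand through which CD4 T cells license antigen-presenting and B cells, was at 354 and 770 TPM in adipose tissue and at 37.6 and 33.3 TPM in spleen (adjusted p = 0.0169, log2 fold change 3.84 with SE 0.41). It was the only called gene of 21 tested. Tnfsf14, the ligand LIGHT, was at 28.2 and 112 TPM against 6.28 and 4.51 TPM. Tnfrsf9, the receptor 4-1BB, was at 22.7 and 69.3 TPM against 321 and 264 TPM (adjusted p = 0.0823). Tnfrsf4, which encodes OX40, had 988 and 665 TPM against 2536 and 2012 TPM, and Cd27 at 184 and 79.6 TPM against 439 and 352 TPM. None of the latter 4 genes passed the test.

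Annexins, S100 proteins and galectins, calcium- or sugar-binding proteins of the cell cortex and membrane, lay higher in adipose cells across the list. The log2 fold change was positive in 20 of 20 tested members, against 65.5% of all tested genes. In 18 of the 20 both adipose values lay above both spleen values, against 37.8% of all tested genes. The median was 1.65 and remained at 1.49 after quantile normalization. Anxa1, known for curbing inflammation, was at 271 and 681 TPM in adipose tissue and at 13.4 and 11.3 TPM in spleen (adjusted p = 0.00966, log2 fold change 5.01 with SE 0.45), and was the 1 member that passed. Lgals3, which encodes galectin-3, was at 270 and 205 TPM against 36.8 and 15.5 TPM (adjusted p = 0.0809). S100a6 was at 1178 and 2139 TPM against 278 and 245 TPM. Vim, the intermediate filament vimentin included in the list, was at 923 and 1193 TPM against 208 and 214 TPM. Lgals1 was the most abundant of these, at 3295 and 3527 TPM in adipose tissue and 1051 and 1074 TPM in spleen. In the WT libraries alone 6 members passed.

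The remaining genes that passed belong to several functions. Rnf128, the ubiquitin ligase GRAIL tied to T cell anergy, was at 106 and 395 TPM in adipose tissue and at 1.35 and 1.83 TPM in spleen (log2 fold change 6.32, adjusted p = 0.0169). Tmem176b, a membrane channel, was at 658 and 1171 TPM against 31.2 and 33.6 TPM (log2 fold change 4.72, adjusted p = 0.0169). AA467197 was at 138 and 23.7 TPM in adipose tissue and listed at 0 in both spleen libraries (adjusted p = 0.0429). Ramp3, a partner of receptors for calcitonin-family peptides, was at 43.0 and 117 TPM against 3.24 and 1.91 TPM (adjusted p = 0.0392). Bik, a member of the BCL2 family that promotes cell death, was at 68.1 and 65.7 TPM against 1.59 and 3.92 TPM (log2 fold change 4.25, adjusted p = 0.0203). It was the only called gene among 19 BCL2 family members tested, and Bcl2 itself stood at 87.6 and 90.0 TPM against 40.2 and 52.6 TPM. Rgcc, a regulator of the cell cycle, was at 453 and 1252 TPM against 79.3 and 47.1 TPM (adjusted p = 0.0483). Ephx1, which detoxifies epoxides, was at 43.1 and 31.8 TPM in adipose tissue and at 230 and 177 TPM in spleen (adjusted p = 0.0389, log2 fold change -2.41 with SE 0.31). The T cell core list had a median of 0.22, and 0 of its 16 genes were called by limma (1 with the block).

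The KO libraries set no fold change here, but their spread entered the fit that called the 22 genes. Their values are therefore not independent of the calls and are given as a description. For all 18 genes that rose, both KO adipose libraries lay above both KO spleen libraries, as in 22.1% of all tested genes. For 3 of the 4 that fell, Il18 being the exception, both KO adipose libraries lay under both KO spleen libraries, as in 14.6% of all tested genes. The Fos level was 1779 and 1525 TPM in KO adipose cells, and 6.48 and 2.21 TPM in KO spleen cells. The Cxcr6 values in the same libraries were 1442 and 1063 TPM against 31.2 and 85.9 TPM. None of the 22 genes passed the interaction between tissue and genotype, which 4 of all tested genes did.

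No gene of the metabolic lists passed the test. Of 22 glycolysis genes, 20 had a positive log2 fold change, against 65.5% of all tested genes. Of these 22, 0 were called by limma in the main fit or with the block, and the median was 0.93. Eno1, an enolase, was at 868 and 668 TPM in adipose tissue and at 285 and 297 TPM in spleen, and the lactate dehydrogenase subunit gene Ldhb was lower, at 62.8 and 44.2 TPM against 163 and 143 TPM. Of 36 lipid metabolism genes, 30 had a positive log2 fold change (65.5% of all tested genes did) and 0 were called, with a median of 1.01. The list summed to 1344 and 4340 TPM in adipose experiments 2 and 3 and to 660.0 and 749.9 TPM in spleen, and 6 of its members were at least 4-fold higher in adipose experiment 3 than 2. Adipocyte markers, which share Fabp4, Lpl and Scd1 with it, summed to 9.57 and 2206 TPM in these adipose libraries, and their part in the lipid values was not tested. Cpt1a, which admits fatty acids to mitochondria, had 35.4 and 89.5 TPM against 12.5 and 17.6 TPM, and Acadvl, an enzyme of fatty acid oxidation, at 119 and 115 TPM against 29.8 and 39.0 TPM. The lists share Pparg with the adipose Treg genes. After quantile normalization the medians were 0.75 for glycolysis and 0.63 for lipid metabolism. All 13 genes encoded in the mitochondrial genome had a negative log2 fold change, with a median of -0.89. They made up 9.28% and 8.35% of TPM in adipose tissue and 18.4% and 12.9% in spleen. With hemoglobin and mitochondrial genes removed and the other genes rescaled, 21 genes passed, 20 of them among the 22. Among 36 cell cycle genes 0 were called, and Mki67, a marker of dividing cells, was at 24.8 and 12.7 TPM against 7.71 and 15.6 TPM. Cdkn1a, the cell cycle inhibitor p21, was the 1 member at least 4-fold apart in both experiments, at 42.3 and 88.4 TPM against 4.62 and 3.53 TPM (adjusted p = 0.108).

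The 2 adipose libraries differed in what kind of T cell genes they held. Of 18 Th1 and cytotoxic genes, 17 were higher in adipose experiment 2, 11 of them by 4-fold or more, and none was higher in experiment 3. Over all tested genes 46.7% were higher in adipose experiment 2 and 50.9% in experiment 3, and 343 and 510 genes were so by 4-fold or more. The following examples were chosen after their values were seen. Ifng, the main Th1 cytokine, was at 140 TPM in experiment 2 and 0.258 TPM in experiment 3, and Tbx21, its transcription factor T-bet, at 64.1 and 3.69 TPM. Nkg7, a protein of cytotoxic granules, was at 964 and 63.2 TPM, and the granzyme gene Gzmb at 145 and 4.28 TPM. In the spleen these 4 genes stood between 1.90 and 358 TPM. The 18 genes had a median log2 difference, experiment 3 minus 2, of -2.43 in adipose tissue and of 0.41 in spleen. Of the 25 adipose Treg genes, 17 were higher in adipose experiment 3, 10 by 4-fold or more, with a median of 1.45 against 0.37 in spleen. Of the 18 naive and homing genes, 15 were higher in experiment 2. Each experiment holds 1 WT adipose library, so these differences were not tested. In the KO adipose libraries of the same experiments 15 of the 18 Th1 and cytotoxic genes were again higher in experiment 2, as were 38.9% of all tested genes, with a median log2 difference of -2.77. There Ifng had 65.9 and 1.77 TPM and Tbx21 22.3 and 3.52 TPM, while Gzmb was listed at 0 and at 15.1 TPM. Of the adipose Treg genes 18 of 25 were higher in KO adipose experiment 3, as were 59.7% of all tested genes. Of the naive and homing genes 11 of 18 were higher in KO adipose experiment 2, but their sum was lower there, at 1919 TPM against 2635 TPM in experiment 3. The order of these sums rested on Ly6c1 alone, at 316 and 1620 TPM in KO adipose experiments 2 and 3. In WT adipose tissue the sum of the list was 2605 and 1252 TPM.

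**Figure D4:**
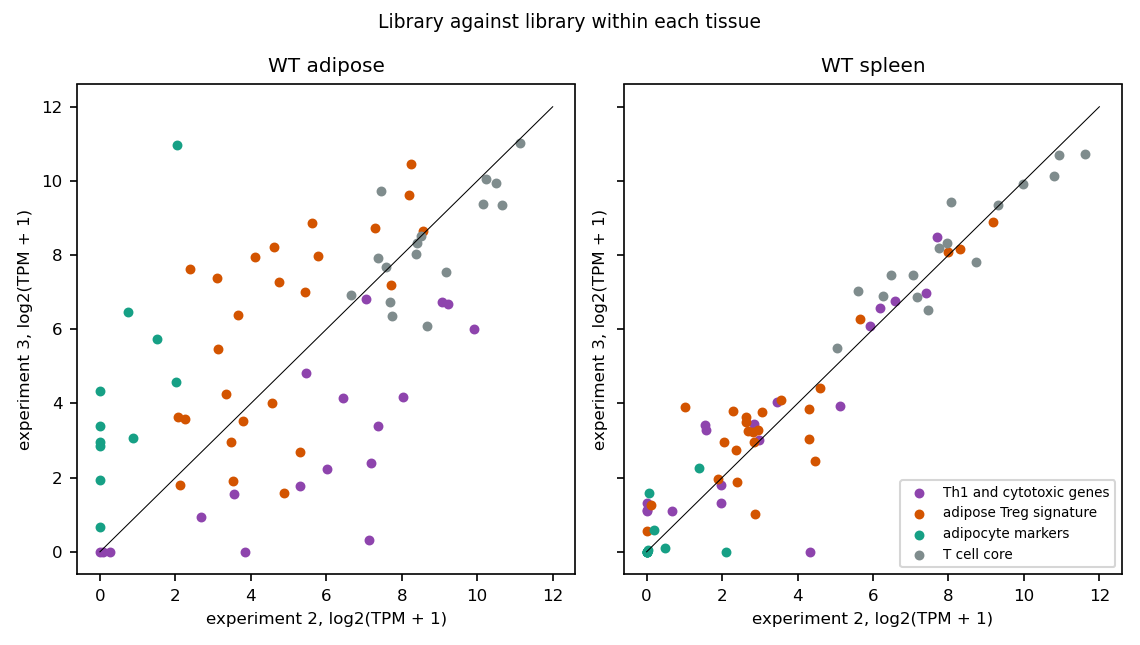
Transcript level in experiment 3 against experiment 2, both as log2(TPM + 1), in WT adipose tissue (left) and WT spleen (right), for the members of 4 gene lists. In adipose tissue the Th1 and cytotoxic genes lie on or below the line of equality and the adipocyte markers above it, while in spleen most points lie near the line.

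Transcripts of other cell types differed between the tissues and between the adipose libraries. Macrophage and monocyte markers summed to 216.8 and 92.96 TPM in adipose tissue and to 1448 and 779.9 TPM in spleen. Of 16 tested, 15 had a negative log2 fold change, as did 4562 of all 13376 tested genes. Of these markers 7 were at least 4-fold lower in both experiments, and C1qa, Cd14, Fcgr1, Mrc1 and Ms4a7 were at 0 in both adipose libraries. C1qb was at 0.699 and 0.214 TPM against 72.3 and 57.3 TPM (limma, adjusted p = 0.392, and 0.00695 in the WT libraries alone). The main fit takes in the KO adipose libraries, in which C1qb was at 5.78 and 2781 TPM. Genes of major histocompatibility complex class II and other dendritic cell markers summed to 274.3 and 88.09 TPM against 2302 and 882.7 TPM. B cell and plasma cell markers summed to 873.1 and 705.8 TPM against 4126 and 1621 TPM, and Igkc, the immunoglobulin kappa constant region, was at 11.3 and 1.46 TPM against 1675 and 130 TPM (adjusted p = 0.182, and 0.00935 with the block). Erythroid and platelet markers, mostly hemoglobins, summed to 45.42 and 3821 TPM in adipose tissue and to 15740 and 46920 TPM in spleen. Of the 122 genes at least 4-fold lower in adipose tissue in both experiments, those of at least 20 TPM in spleen with the largest difference, by the smaller of both, included Igkc, C1qb, Hbb-bt, Tyrobp, Fcna, Hpgd, C1qc, Ly86 and Il18. Apart from Il18 none of these passed the test in the main fit, and Igkc passed with the block.

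Markers of adipose tissue were mostly those of 1 library. Adipocyte markers summed to 9.57 TPM in adipose experiment 2 and 2206 TPM in experiment 3, against 5.53 and 6.44 TPM in spleen. Fabp4, a fatty acid carrier of adipocytes and endothelium, made up most of that, at 3.11 and 1991 TPM in the adipose libraries. Endothelium markers summed to 39.43 and 185 TPM against 15.87 and 28.77 TPM, and mast cell and granulocyte markers to 2.21 and 147 TPM against 1.19 and 3.19 TPM. T cell core genes summed to similar values in all 4 libraries, 10660 and 8235 TPM in adipose tissue and 10390 and 8452 TPM in spleen. AP-1 genes summed to 5544 and 11590 TPM in adipose tissue and to 790.7 and 965.2 TPM in spleen. The part of other cell types in the differences between the tissues was not tested.

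**Figure D5:**
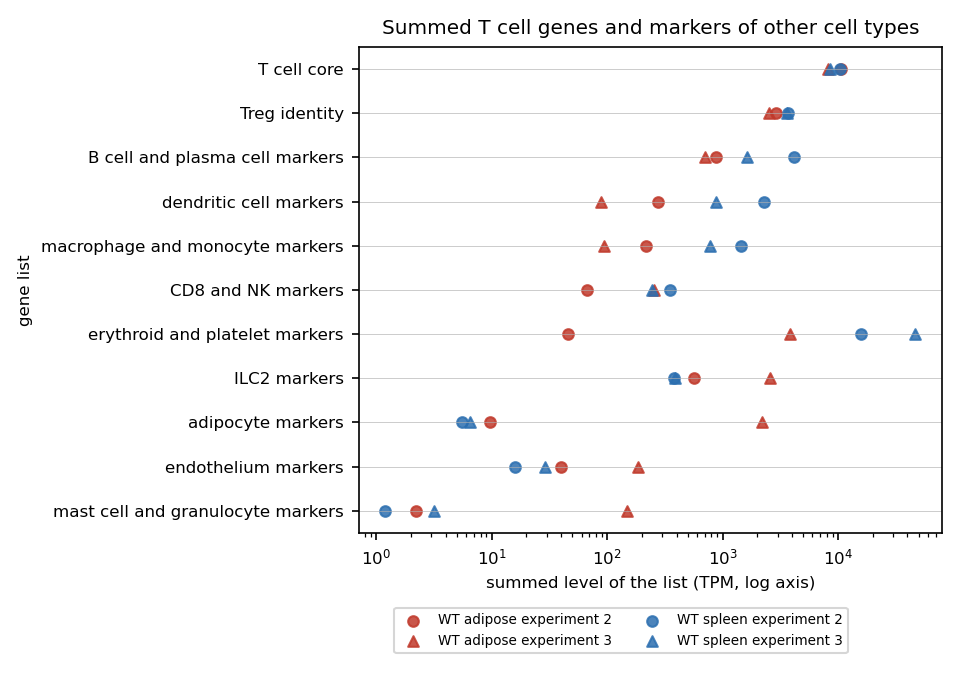
Summed TPM, on a log axis, of T cell and Treg genes and of markers of other cell types in each WT library, with red for adipose tissue, blue for spleen, circles for experiment 2 and triangles for experiment 3. The T cell sums nearly coincide, macrophage, dendritic cell and B cell sums are higher in spleen, and the adipocyte, endothelium and mast cell sums are highest in adipose experiment 3. The dendritic cell sum is mostly that of Cd74 and the class II genes H2-Aa, H2-Ab1 and H2-Eb1.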

How the data were processed

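Per the labels' protocols, libraries were made from sorted cells by SMARTer v4 low-input amplification and Nextera XT. The authors deposited 1 table of TPM for 8 libraries, identified from the values (each column sums to 1000000). The submitters' processing notes name the build mm9. The aligner and the counting tool are both not given in the sources available here. TPM keeps no depth, so no counting interval is given. Names that had become dates (27) are not named.

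Genes that reached 1 TPM in 2 or more libraries were fitted with limma 3.58.1 (R 4.3.3), with a variance trend, on log2(TPM + 1), a scale that understates the changes of low genes. All 8 libraries entered 1 fit of 4 groups, since 2 libraries a group leave 2 residual degrees of freedom in the WT libraries alone. P-values were adjusted by Benjamini-Hochberg over all genes tested. SE is limma's. The 4-fold rule asks for a log2 difference of at least 2 in the same direction in experiments 2 and 3 and is no test. Same-numbered libraries deviated together (r from 0.128 to 0.382 over 6 pairs of groups). The value of a fit blocked on experiment is therefore printed wherever it changes the call of a named gene.

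Named genes were all called genes (no overlap, at least 5 TPM in the higher group, up to 20 a direction), fixed genes of the gate and of adipose Tregs, and, per list, called members, members past the 4-fold rule and up to 4 with the smallest p. Up to 10 genes a direction with the largest 4-fold differences and at least 20 TPM were added. Predicted genes and receptor segments are not named, and a few genes of the rule are not reported here. Genes and lists were chosen with earlier results of these data known. Promoters came from a RefSeq table of GRCm38.p6.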

Additional observations from a re-analysis of the deposited data

How the results depend on the processing

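The number of genes called (22) depended on the processing. It was 78 with the replicate block, which pairs libraries by experiment number, 217 in the 4 WT libraries alone, 234 in these with the block, 0 in these with the filter taken over all 8 libraries (an alternative chosen after seeing the data), 219 with library quality weights, 59 with a filter at 5 TPM, 7 without a variance trend and 0 by limma with no filter (1961 at an unadjusted p under 0.05, in 23448 genes). Leaving out 1 library gave between 0 and 175 genes. All 22 genes kept their call with the block, in the WT libraries alone with their own filter, with quality weights and with the 5 TPM filter, while 15 kept it after quantile normalization and 16 with a pseudocount of 5. Fos and Dusp1 kept theirs in 7 of 8 leave-outs, and lost it without WT spleen experiment 2 (adjusted p = 0.0606). The counts past the 4-fold rule were 207 higher and 122 lower, and became 476 and 364 with a pseudocount of 0.1 and 91 and 45 with one of 5. Quantile normalization gave 139 and 180, which turns the excess of higher genes into one of lower genes. The fold changes of 44 of the named genes were compared across the alternatives, and none of these 44 changed sign in any. This does not cover the other named genes, such as Egr2, whose direction differed between the experiments. The medians of 6 lists did in at least 1, among them the Th1 list without WT adipose experiment 2 and the naive list without WT adipose experiment 3. The causes of these differences were not tested. With 2 libraries a group and no depth, differences smaller than the spread between libraries cannot be shown.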

Other observations

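Lists that belong to no passage above gave the following values in WT adipose tissue and spleen, none of them past the test in the limma fit of all 8 libraries or with the block. Of all 13376 tested genes 4562 had a negative log2 fold change. Of 31 interferon response genes 24 had a negative log2 fold change, with a median of -0.37, and 0 were at least 4-fold apart in both experiments. Of 12 follicular helper genes 9 had a negative log2 fold change (median -0.88). Sh2d1a, which encodes the signaling adaptor SAP, was at 43.5 and 18.3 TPM in adipose experiments 2 and 3 and at 138 and 91.3 TPM in spleen, and Bcl6, the follicular helper factor, at 0.997 and 0.116 TPM against 2.96 and 5.06 TPM.

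Among 23 integrin and adhesion genes, Itgb7, the β7 chain of gut-homing and epithelial integrins, was at 855 and 1030 TPM against 170 and 286 TPM. Itgb8, part of the integrin that activates TGF-β, was at 0.654 and 0.485 TPM against 5.05 and 6.08 TPM. In both genes the tissues did not overlap. Of 20 genes of the STAT5 axis, 15 had a positive log2 fold change (median 0.87), near the 65.5% of all tested genes. Cish, a feedback inhibitor induced by STAT5, stood at 180 and 321 TPM against 54.1 and 64.0 TPM.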
